A study of Mus musculus with 4 samples.

Results

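The genes described here copy the genome and supply its building blocks: 39 genes for origin licensing, the replicative helicase, the polymerases and primase, the sliding clamp and its loader, single-strand binding, joining of the lagging strand, deoxynucleotide synthesis and maintenance of DNA methylation. They were chosen by function, as the rows of the deposited table whose Entrez number carries one of 39 mouse symbols, and all 39 were found among the 28440 rows. Their RNA was measured in 4 tumours of the mammary gland, here tumours 1 to 4, from mice of the genotype MMTV-R26Met. In this model of triple-negative breast cancer the MMTV promoter, active in mammary epithelium and some other tissues, directs expression of Met from Rosa26. All 4 tumours carry the same alleles, and no normal or control tissue is among them. The comparison is therefore of tumours with one another. Since the labels give neither the number of mice nor their age or strain, p-values here measure only the spread between these 4 samples, which may be technical.

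A cell can copy its genome once per division because origins are prepared and fired in separate phases. In G1 the origin recognition complex, with Cdc6 and Cdt1, loads MCM2-7, the ring-shaped helicase, onto DNA. In S phase Cdc45 and the GINS complex turn the loaded ring into a moving helicase, primase and polymerase alpha start each strand, and polymerases delta and epsilon extend it while tethered by the PCNA clamp. Most of these genes are transcribed around the entry into S phase under the E2F transcription factors, and their RNA is widely used as a sign of proliferation in tumours. In a bulk sample, a larger share of dividing cells and more of this RNA per dividing cell cannot be told apart.

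Since E2F sites are what many of these genes are known to share, the promoter windows of RefSeq (GRCm38.p6, 250 bases before to 50 bases after each start) were searched for the consensus TTTCCCGC, TTTCGCGC, TTTGCCGC or TTTGGCGC on both strands. Of the 39 genes 32 had a window, 38 windows in all. Mcm4, Gins1, Gins2, Gins4, Prim2, Pole and Rfc2 had none in the table. A match was present in 14 of the 38 windows (36.8%), belonging to 14 genes, against 744 of 32851 windows of all genes (2.26%). Windows of the other replication genes listed for comparison held it in 19 of 80 (23.8%). Without the first T of the motif the counts were 23 of 38 windows (60.5%) against 45% for the other replication genes and 9.57% of all. Of the 20 matches 8 lay after the start, among them those printed below for Cdt1, Mcm3 and Pole2, which begin at bases 33, 20 and 11. The following sites show the match in capitals within 30 bases on the gene's strand, 5′ to 3′, chosen to cover licensing, helicase and polymerase genes.
Orc1 (chr4:108579416-108579445, plus strand): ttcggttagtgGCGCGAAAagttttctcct
Cdc6 (chr11:98908002-98908031, plus strand): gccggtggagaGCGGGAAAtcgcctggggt
Cdt1 (chr8:122568035-122568064, plus strand): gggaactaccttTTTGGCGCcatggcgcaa
Mcm3 (chr1:20820275-20820304, minus strand): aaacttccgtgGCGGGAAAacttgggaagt
Mcm5 (chr8:75109347-75109376, plus strand): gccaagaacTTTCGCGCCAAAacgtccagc
Mcm7 (chr5:138172030-138172059, minus strand): aatttcgaaccGCGGGAAAcagggtgtcca
Gins3 (chr8:95633507-95633536, plus strand): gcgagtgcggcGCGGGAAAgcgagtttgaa
Pola1 (chrX:93632275-93632304, minus strand): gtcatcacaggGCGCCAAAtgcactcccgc
Pole2 (chr12:69228162-69228191, minus strand): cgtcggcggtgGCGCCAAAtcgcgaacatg

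Mcm6 had the most matches, 3 in its window. The first pair overlaps, beginning 110 and 106 bases before the start, and the other begins 47 bases before it. The 170 bases upstream of its start are shown for the arrangement of these sites, with the matches in capitals.
Mcm6 (chr1:128359706-128359875, minus strand): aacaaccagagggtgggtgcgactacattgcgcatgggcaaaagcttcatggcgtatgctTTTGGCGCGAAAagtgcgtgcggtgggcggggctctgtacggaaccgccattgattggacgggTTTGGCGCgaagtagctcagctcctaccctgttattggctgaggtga

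Promoter windows of mitosis genes, which peak later in the cell cycle, held other letters. Of 17 windows of the 20 mitosis genes listed, 1 (5.88%) had the E2F consensus. The CHR letters TTTGAA or TTCGAA, the element known from genes of G2 and mitosis, were in 13 of these 17 windows (76.5%) but in 7 of the 38 windows of the replication genes (18.4%), against 19.2% of all windows. CCAAT boxes were in 14 of 17 mitosis windows (82.4%), 22 of 38 replication windows (57.9%) and 37.4% of all windows. The GC box letters GGGCGG were in 14 of 17 mitosis windows (82.4%), 27 of 38 replication windows (71.1%) and 35.7% of all windows. Whether base composition bears on the shares of any motif was not tested. A letter match describes these windows only and is not evidence of a bound factor.

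Cell-type markers differed between these libraries, and their part in the results that follow was not tested. No library repeated another: chi-square over its degrees of freedom was 152 to 455 for the pairs. All 4 tumours had epithelial markers, as the label of mammary tumour implies, given here in CPM (the count scaled to a common library size with TMM factors), with summed levels of Epcam, Krt8, Krt18 and Cdh1 of 2277, 3421, 2974 and 3494 CPM, lowest in tumour 1.

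Markers of some other cells were also highest in tumour 3. The 4 skeletal muscle genes together reached 808 CPM in tumour 3, against 0.755 to 1.27 CPM elsewhere (Acta1 with 13166 counts against 8 to 16). Only Mylpf of these 4 was kept for the tests below, as the filter removed genes low in any tumour. The neutrophil markers matched, 3 of 4 listed, summed to 14.9, 27, 86.0 and 50.5 CPM. Of these, S100a9 and Csf3r were highest in tumour 3, but S100a8 was highest in tumour 4 (4.59, 15.4, 25.0 and 28.3 CPM). The 4 adipocyte markers summed to 15.5, 31.7, 91.3 and 8.67 CPM, but only Fabp4 was highest in tumour 3. The other markers had few counts and were highest in tumour 2, with 10, 129, 7 and 11 counts for Adipoq, 3, 47, 3 and 10 for Plin1 and 4, 27, 5 and 10 for Lep. T cell markers were scarce in all tumours, with summed levels of 2.06 to 5.65 CPM for 5 genes. Fibroblast markers summed to 1573, 1763, 2114 and 2582 CPM, and macrophage markers to 307, 467, 352 and 377 CPM. Endothelial markers summed to 156, 115, 140 and 95.8 CPM. For none of these 3 sums was tumour 3 the highest. Gene by gene, tumour 3 was highest for 2 of 4 endothelial markers (Kdr and Tie1), 1 of 5 fibroblast markers (Pdgfra) and 0 of 5 macrophage markers.

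The 39 replication genes were most abundant in tumour 3, lower in tumour 1 and lowest in tumours 2 and 4. Highest in tumour 3 were 37 of the 39 genes, where 29.7% of all 15808 genes tested were highest in that tumour. The sum over the 39 genes was 1608, 1287, 2637 and 1262 CPM for tumours 1 to 4. Tumours 2 and 4 differ little on this measure, and tumour 1 lies between them and tumour 3.

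As a share of raw library counts the 39 genes held 0.160%, 0.127%, 0.274% and 0.124% in tumours 1 to 4, on average 0.171% ± 0.0706 (SD, n = 4). The 95% exact binomial interval was 0.159 to 0.161% in tumour 1 and 0.273 to 0.276% in tumour 3, and such intervals cover counting error only. Member counts ran from 80 (Orc1 in tumour 2) to 7120 (Mcm6 in tumour 3), within library totals of 35220504 to 42809015 counts. For this share, counting error was therefore small beside the distance of tumours 1 and 3 from the rest. Tumours 2 and 4 were close, with intervals of 0.126 to 0.128% and 0.123 to 0.125%.

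A score, the average over the 39 genes of their log2 CPM after centring each gene on its own mean, was 0.02, -0.35, 0.69 and -0.36 in tumours 1 to 4. The range of 1.05 corresponds to 2.07-fold. The mean over all genes tested moved by 0.03, a value that TMM scaling on these genes keeps small by design. The median ratio of tumour 3 over another tumour was 1.66 against tumour 1, 1.95 against tumour 2 and 2.03 against tumour 4. The same medians over all genes tested were 1.02, 1.00 and 1.01, which the scaling likewise holds level. Tumour 1 was second highest for 31 genes, each highest in tumour 3, an order of the first places found in 13.5% of all genes tested. The exceptions Gins3 and Rpa2 left 37 genes higher in tumour 3 than in tumour 1 (52% of all genes tested) and 2 highest in tumour 1 (22.9%). Tumour 1 was above tumour 2 for 35 genes (50.2% of all genes tested) and above tumour 4 for 33 (48.8%), while tumour 4 was above tumour 2 for 22 (50.4%). Lowest in tumour 2 were 18 genes (19.7% of all genes tested) and lowest in tumour 4 were 17 (27.8%). The order of tumours 3, 1, 2, 4 held for 16 genes (8.14% of all genes tested) and 3, 1, 4, 2 for 15 (5.4%). A single tumour far from the rest, by Dixon's criterion, was seen for 8 genes (5.64% of all genes tested), each time tumour 3 as the highest (1.23%). Without tumour 3 the range of the score was 0.39. When libraries were scaled to the 4 epithelial genes in place of TMM, 28 of 39 replication genes were highest in tumour 3 and 11 in tumour 1 (Gins1, Gins3, Gins4, Mcm10, Pold1, Pold2, Prim1, Prim2, Rpa1, Rpa2 and Rrm1). The score was then 0.41 in tumour 1 and 0.71 in tumour 3, so the distance between these tumours depends on the scaling, while tumours 2 and 4 were lowest either way.

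**Figure D1:**
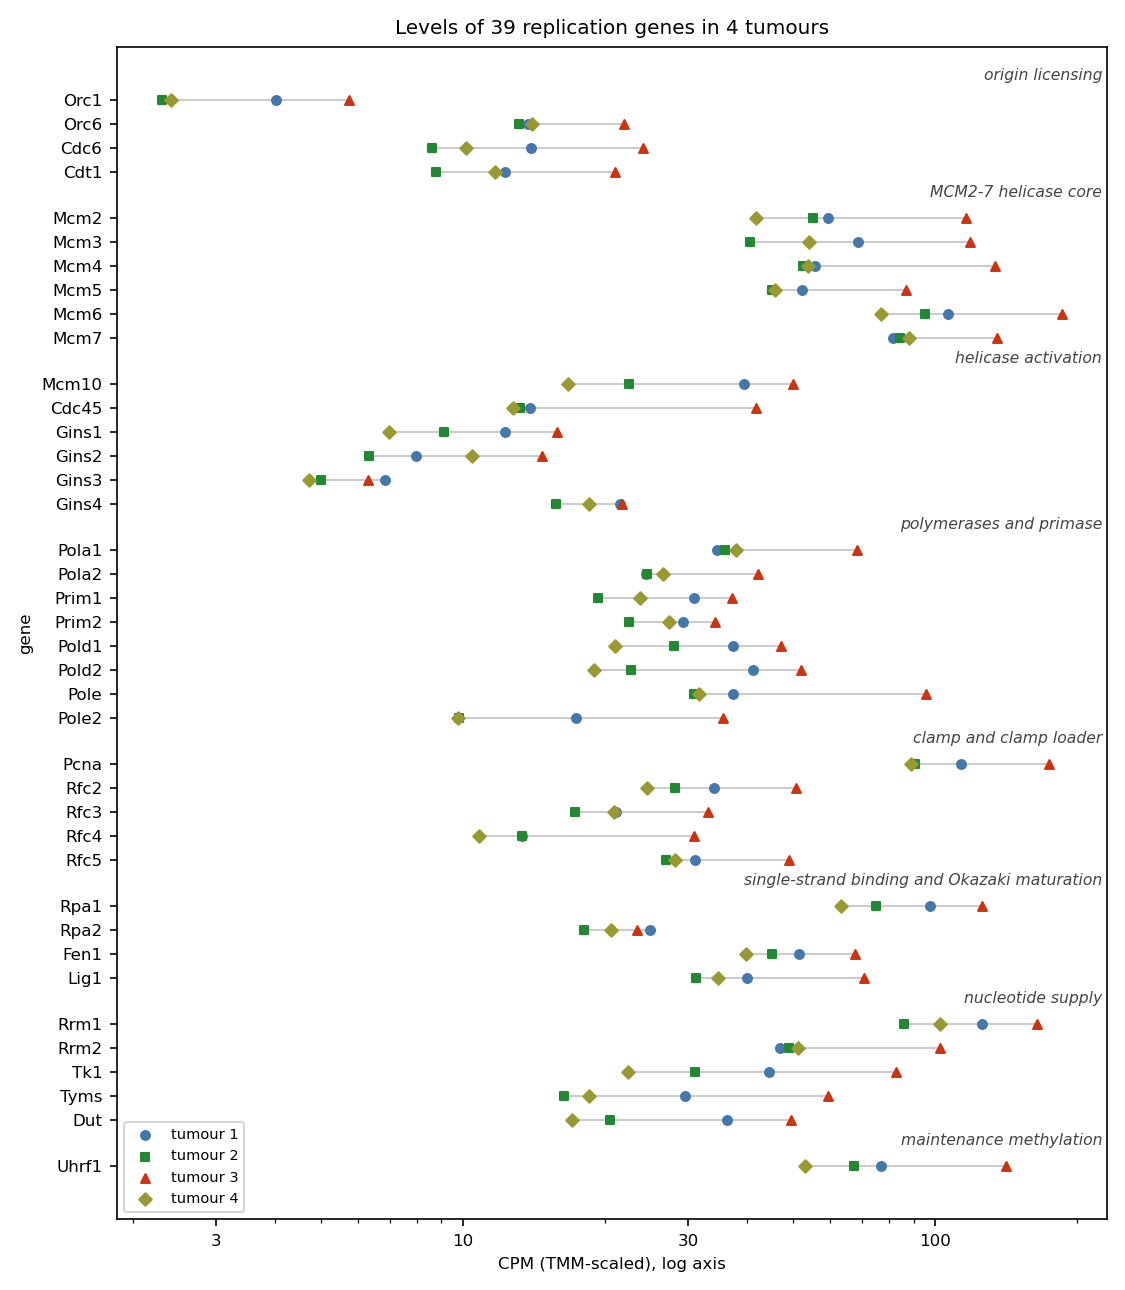
Level of each of the 39 genes in each tumour, in CPM on a log axis, with 1 symbol per tumour and a grey line from the lowest to the highest. With TMM scaling tumour 3 is rightmost for 37 genes, the exceptions being Gins3 and Rpa2, against 28 genes when scaled to epithelial markers.

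Gene by gene, none of the 39 passed a test of whether its spread exceeded what the 4 tumours showed for other genes of like expression. The spread test, edgeR's negative binomial fit with 1 mean per gene at the trended dispersion and Benjamini-Hochberg adjustment over 15808 genes, called 574 genes (3.63%) and 0 of the 39. The adjusted p of the 39 genes ran from 0.486 to 1. Unadjusted p fell below 0.05 for 3 of them, Pole, Tk1 and Tyms, which is 7.69% against 8.74% of all genes tested, a share near the background. By DESeq2, 91 genes were dispersion outliers, among them 0 of the 39. In this design the tumours of 1 group serve both as the samples and as the measure of their spread, with a trended coefficient of variation of 0.331 to 0.514 over all genes tested.

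The fold of the highest over the lowest tumour ran from 1.38 (Rpa2) to 3.69 (Tk1), with a median of 2.27 against 1.73 over all genes tested. A fold above 2 was seen for 23 of 39 genes and 37% of all genes tested. Among genes in the same range of mean level (3.62 to 120 CPM), 4.11% passed the test, and the lowest fold among those was 4.96. The largest fold of a replication gene is thus under the smallest that passed. Tumour 3 exceeded the next tumour by over 1.5-fold for 23 of the 39 genes, against 7.35% of all genes tested.

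**Figure D2:**
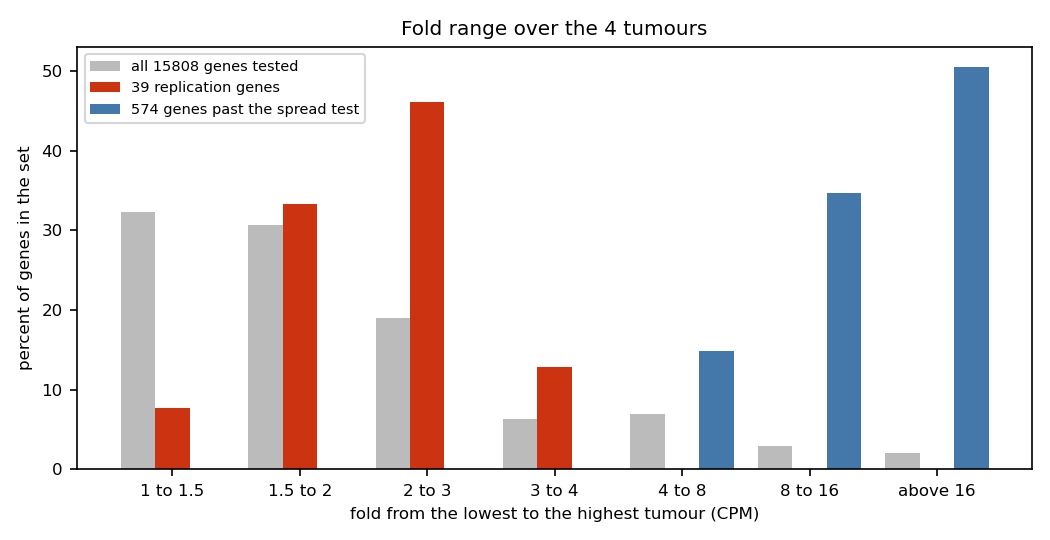
Fold of the highest over the lowest tumour for all genes tested (grey), the 39 replication genes (red) and the 574 genes past the spread test (blue), as percent of each set. The 39 genes lie between 1.38 and 3.69, and 46.2% of them fall between 2 and 3, where 0 of the 574 lie.

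Licensing genes had their highest level in tumour 3 and their lowest in tumour 2. Orc1, an ATPase subunit of the origin recognition complex (Entrez gene 18392, chromosome 4, 108575705 to 108616030, GRCm38), had 4.02, 2.31, 5.73 and 2.41 CPM in tumours 1 to 4. Tumours 2 and 4 were close together, and tumour 3 was 1.43 times the next tumour. Cdc6, which recruits the helicase with Cdt1, stood at 14.0, 8.6, 24.1 and 10.1 CPM. Levels of 12.3, 8.77, 21.0 and 11.7 CPM were found for Cdt1, the helicase loader that is destroyed once S phase begins. Orc6, the small subunit of the recognition complex, had 13.1 to 14.0 CPM in tumours 1, 2 and 4 and 22.0 CPM in tumour 3. The group of 4 scored 0.72 in tumour 3 and -0.48 in tumour 2, and 0 of the 4 passed the spread test.

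All 6 subunits of the MCM2-7 ring were highest in tumour 3. Mcm4 (Entrez gene 17217, chromosome 16, 15623897 to 15637400) had 55.7, 52.4, 134 and 53.8 CPM in tumours 1 to 4, on average 73.9 ± 39.9 (SD, n = 4). Its tumour 3 value was 2.4 times the next, while the other tumours lay within a narrow band. Mcm2 stood at 59.4, 55.0, 116 and 41.8 CPM, and Mcm3 at 68.5, 40.6, 119 and 54.1 CPM. Mcm5 ran from 45.1 to 86.8, Mcm6 from 77.0 to 186 and Mcm7 from 81.3 to 135 CPM, each highest in tumour 3. Group scores were -0.11, -0.32, 0.77 and -0.35. Of the 6 genes 0 passed the spread test.

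Because the ring holds 1 copy of each subunit, the RNA of the 6 genes was also compared per length, as CPM per kilobase of exon (GENCODE M21, GRCm38). Their sum was 123, 108, 224 and 106 CPM per kilobase in tumours 1 to 4. Within a tumour the highest of the 6 was 1.82 to 2.4 times the lowest. Mcm7 had the largest share in each tumour, from 20.4% in tumour 3 to 28.1% in tumour 4. Mcm5 had the smallest share in tumours 1, 2 and 3 (11.2 to 12.3%) and Mcm2 in tumour 4 (11.7%). Mcm4 took 16.6% in tumour 3 and 12.7 to 14.2% in the others. The sum ranged from 106 to 224, while no subunit's share moved by more than 1.5-fold between tumours.

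Of the genes that activate the helicase, 5 of 6 were highest in tumour 3. Cdc45 (Entrez gene 12544, chromosome 16, 18780447 to 18811972), which joins MCM and GINS in the active helicase, had 13.9, 13.2, 41.7 and 12.8 CPM. Tumour 3 was 3.01 times the next, the widest such gap among the 39 genes, and the other tumours nearly coincided (edgeR adjusted p = 0.739). Mcm10, which helps to activate the loaded helicase, was high in both tumours 3 and 1, at 39.3, 22.5, 50 and 16.7 CPM. Its order was shared by Gins1, with 12.3, 9.11, 15.8 and 6.97 CPM.

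The other GINS subunits parted from this order. Gins2 had 7.97, 6.32, 14.7 and 10.4 CPM, so that tumour 4 was second. Gins3 was highest in tumour 1, at 6.84 CPM, followed by 6.31 in tumour 3, 5.02 in tumour 2 and 4.72 in tumour 4. For Gins4 tumours 1 and 3 were level at 21.6 and 21.7 CPM, above 15.7 in tumour 2 and 18.5 in tumour 4. With the RLE scaling of library sizes Gins4 was highest in tumour 1. The subunits of the GINS complex, which assemble in equal number, therefore had folds from 1.38 (Gins4) to 2.33 (Gins2), and the ratio of Gins2 to Gins3 per kilobase was 0.809, 0.874, 1.62 and 1.54 in tumours 1 to 4. None of the 4 passed the spread test (edgeR adjusted p = 1 for each).

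Among the polymerases, the 2 epsilon genes had the widest folds. Pole, the catalytic subunit of the leading-strand polymerase epsilon (Entrez gene 18973, chromosome 5, 110286319 to 110337468), stood at 37.3, 30.8, 95.6 and 31.7 CPM, a mean of 48.8 ± 31.3 (SD, n = 4). Pole2, its accessory subunit, had 17.4, 9.84, 35.6 and 9.79 CPM. Tumour 3 was 2.56 and 2.05 times the next tumour, and the edgeR adjusted p values were 0.486 and 0.747. Pold1, the catalytic subunit of polymerase delta, which extends the lagging strand, had 37.3, 28, 47.2 and 21.0 CPM. The accessory gene Pold2 had 41.2, 22.7, 51.9 and 18.9 CPM. Tumour 1 was second in all 4 of these genes, and for the delta genes tumour 3 was 1.27 and 1.26 times its level.

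The genes of polymerase alpha and primase, which lay down the primers, had narrower ranges. Pola1 had 34.5, 36.0, 68.3 and 37.9 CPM, and Pola2 had 24.4, 24.5, 42.3 and 26.6 CPM. In both, tumours 1, 2 and 4 were alike and tumour 1 was the lowest. Their ratio per kilobase stayed within 0.758 to 0.867 over the tumours. Prim1, the catalytic primase subunit, ran from 19.3 to 37.2 CPM, and Prim2, the large subunit, from 22.5 to 34.2 CPM. For both primase genes tumour 1 was second, at 30.8 and 29.3 CPM.

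Pcna, the sliding clamp (Entrez gene 18538, chromosome 2, 132249286 to 132253180), had 113, 90.7, 174 and 89.1 CPM, a mean of 117 ± 39.7 (SD, n = 4). It was the most abundant of the 39 per length, at 76.9 CPM per kilobase on average, followed by Mcm7 at 32.8, while Orc1 was the scarcest at 1.20. The loader that opens the clamp is represented by its small subunits. Rfc4 stood at 13.4, 13.3, 30.9 and 10.8 CPM, 2.31 times the next tumour in tumour 3. Rfc2, Rfc3 and Rfc5 had folds of 2.07, 1.91 and 1.82, each highest in tumour 3. The group scored 0.67 in tumour 3 and -0.32 in tumour 4.

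The genes that guard and join the strands varied least. Rpa2, the middle subunit of the single-strand binding protein RPA, had 24.9, 18.1, 23.4 and 20.6 CPM and was highest in tumour 1. Its fold of 1.38 was the lowest of the set. The large subunit Rpa1 had 97.4, 74.9, 126 and 63.1 CPM, with tumour 3 at 1.29 times tumour 1. Fen1, the flap endonuclease that trims Okazaki fragments, stood at 51.6, 45.1, 67.5 and 39.7 CPM. Lig1, the ligase that seals them, had 40.0, 31.2, 70.7 and 34.8 CPM. The group score was 0.46 in tumour 3, the smallest among the groups of members.

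Nucleotide supply had the widest spread of the groups with more than 1 gene, with scores of 0.09, -0.45, 0.86 and -0.50. Tk1, the thymidine kinase that salvages thymidine in S phase (Entrez gene 21877, chromosome 11, 117815519 to 117826087), had 44.5, 31.1, 82.6 and 22.4 CPM (edgeR adjusted p = 0.53). Tyms, which makes thymidylate (Entrez gene 22171, chromosome 5, 30038546 to 30073645), had 29.6, 16.4, 59.3 and 18.5 CPM (edgeR adjusted p = 0.538). Both genes of thymidylate supply had folds above 3.6, and tumour 1 was second in both.

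Dut, which removes dUTP so that uracil stays out of DNA, had 36.2, 20.4, 49.6 and 17.0 CPM. Rrm1 and Rrm2 encode the large and the small subunit of ribonucleotide reductase, which makes deoxynucleotides from ribonucleotides. Rrm1 had 126, 86.1, 164 and 103 CPM. Rrm2, the subunit made in S phase, had 47.0, 49.0, 103 and 51.4 CPM, so that tumour 3 was 2.00 times the next and tumour 1 the lowest. The ratio of Rrm1 to Rrm2 per kilobase was 1.47 in tumour 1 and 0.879 to 1.10 in the others. Uhrf1, which reads half-methylated DNA behind the fork and brings in the methyltransferase, had 76.7, 67.4, 141 and 53.0 CPM.

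The 5 genes that departed most from the shared pattern, by the SD of log2 CPM after the score was subtracted, were Rpa2 (0.39), Pole2 (0.39), Cdc45 (0.38), Gins3 (0.36) and Gins4 (0.36). Pole2 and Cdc45 had more contrast than the set and Rpa2, Gins3 and Gins4 less. Folds were also set beside the E2F consensus, with no test. The 14 genes with a match had a median fold of 2.33 and 13 were highest in tumour 3. Those with a window but no match numbered 18, had a median fold of 2.09, and 17 were highest in tumour 3. Gins3, whose site is printed above, was the 1 exception among genes with a match.

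Other genes of replication were taken as 77 further genes in 7 lists, of which 76 were tested and 0 passed the spread test by edgeR or the DESeq2 rule (unadjusted p below 0.05 for Rb1 alone). Highest in tumour 3 were 49 of the 76, with a median fold of 1.87. Origin firing genes followed the main set most closely, with 11 of 12 highest in tumour 3. Topbp1, a scaffold that loads Cdc45, had 105, 100, 170 and 102 CPM. Ticrr, its partner, had 14.3, 8.91, 24.6 and 9.69 CPM. Of genes that protect the fork or unload the clamp 7 of 8 tested were highest in tumour 3. Atad5, which unloads PCNA, had 28.6, 18.6, 46.3 and 17.8 CPM, whereas Atr, the checkpoint kinase, stood at 49.6, 52.2, 51.7 and 49.9 CPM, a fold of 1.05.

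Genes for nucleosome assembly and DNA methylation behind the fork were highest in tumour 3 in 7 of 8. Chaf1b, a subunit of the chromatin assembly factor CAF-1, had 18.1, 15.7, 49.7 and 21.3 CPM. Dnmt1, the methyltransferase that Uhrf1 recruits, ran only from 205 to 264 CPM. Other origin factors had scores from -0.24 to 0.28, with Mcm8, a helicase of DNA repair, high in tumours 1 and 3 (12.0 and 10.6 CPM) and 4.04 and 4.09 CPM in tumours 2 and 4. Mcmbp, which binds MCM subunits, had 92.0, 79.0, 91.4 and 73.7 CPM. Of the other polymerase and fork subunits 5 of 10 were highest in tumour 3, with Dna2, a nuclease and helicase, at 22.8, 15.1, 35.3 and 17.4 CPM and Top1, which relieves supercoils, at 167, 139, 145 and 128 CPM.

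Several of these genes did not take the order of the main set. Samhd1, which breaks down deoxynucleotide triphosphates, had 61.7, 88.5, 42.0 and 132 CPM and was lowest in tumour 3 (edgeR adjusted p = 0.877). Rb1, which holds E2F factors in check, had 81.3, 142, 29.4 and 146 CPM and was lowest there too (edgeR adjusted p = 0.123, unadjusted p = 0.00575). In the list of E2F and pocket protein genes 7 of 14 were highest in tumour 3, and the score ran from -0.13 to 0.23. Among the other nucleotide enzymes, 8 of 15 were highest in tumour 3. Nme1, a nucleoside diphosphate kinase, had 140, 110, 136 and 112 CPM.

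**Figure D3:**
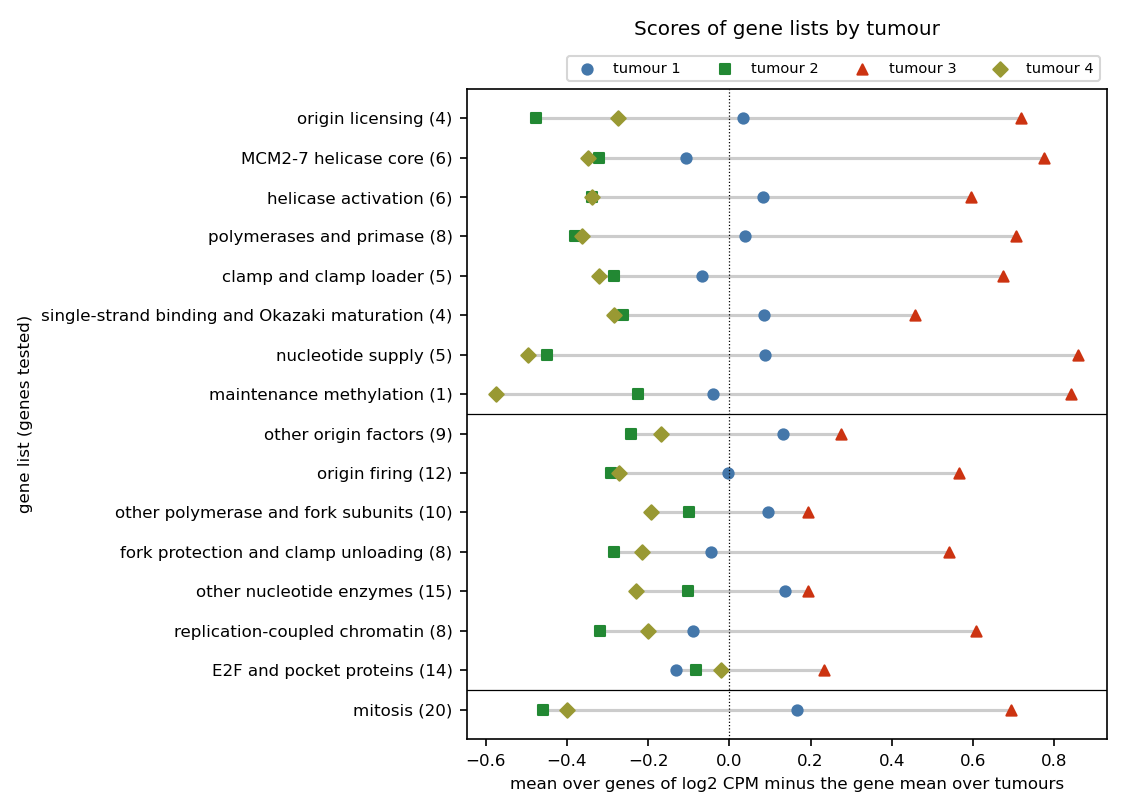
Score of each gene list in each tumour, on the log2 scale with each gene centred on its own mean, for groups of the 39 genes (top), lists of other replication genes (middle) and mitosis genes (bottom), with the number of genes tested in brackets. Tumour 3 is rightmost in every list shown, at 0.46 to 0.86 for groups of the 39 genes and 0.19 to 0.61 for the other replication lists.

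Genes known for S-phase expression could be set beside a partner or a related gene. The ratio of Rrm2 to Rrm2b, the small reductase subunit of resting cells, was 2.72, 2.89, 8.70 and 5.18 per kilobase in tumours 1 to 4. Tk1 over Tk2, the mitochondrial kinase, gave 6.21, 4.42, 12.7 and 2.27. For Uhrf1 over Dnmt1 the ratio was 0.615, 0.455, 0.922 and 0.445. Each of these ratios was highest in tumour 3, and the second gene of each pair had a smaller fold than the first.

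Some ratios between subunits of 1 complex were also highest in tumour 3, and others were not. Pole2 over Pole3, a histone-fold subunit of polymerase epsilon, was 0.489, 0.398, 1.55 and 0.270 per kilobase, with folds of 3.63 and 1.58 for the single genes. Pold1 over Pold3 gave 0.679, 0.678, 0.990 and 0.437, with folds of 2.25 and 1.33. For Orc1 over Orc2 the values were 0.110, 0.0839, 0.155 and 0.0821, with folds of 2.49 and 1.35. Rpa1 over Rpa2 (1.38, 1.46, 1.90 and 1.08) and Prim1 over Prim2 (1.31, 1.07, 1.35 and 1.08) were highest in tumour 3 with smaller folds over the tumours, 1.76 and 1.27. Pole over Pole2 was not, at 0.493, 0.720, 0.617 and 0.743. Cdt1 over Gmnn, which encodes its inhibitor geminin, was lowest in tumour 3, at 0.780, 0.519, 0.473 and 0.550, and Gmnn had the larger fold of the pair (2.82 against 2.4). Tk1 over Dck, the kinase that salvages deoxycytidine, was 2.93, 3.54, 4.57 and 2.48. These pairs were chosen after their values were seen, so the ratios describe the genes named and no others.

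**Figure D4:**
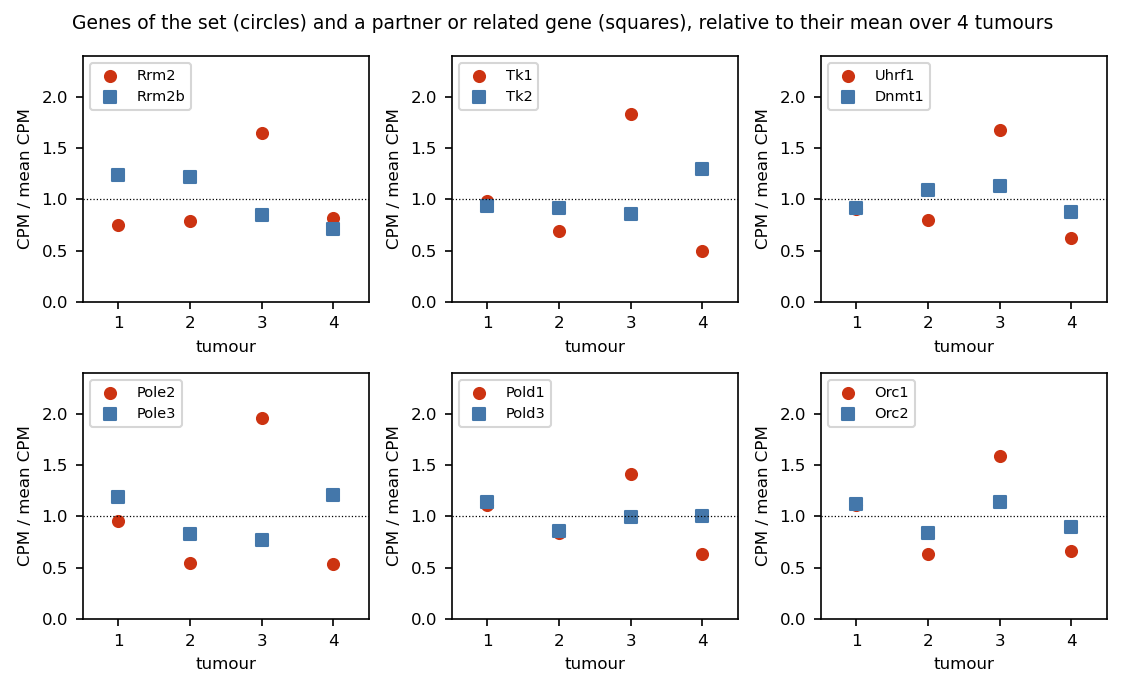
Level of 6 genes of the set (circles) and of a partner subunit or related gene (squares) in each tumour, as CPM divided by the gene's mean over the 4 tumours, with the dotted line at 1. Each circle is highest in tumour 3, and each square has a fold of at most 1.74 over the tumours.

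Mitosis genes were highest in the same tumour as the replication genes. Their score was 0.17, -0.46, 0.69 and -0.40 in tumours 1 to 4, and 19 of 20 were highest in tumour 3. Mki67, the proliferation marker, had 512, 364, 711 and 398 CPM, and Top2a, the topoisomerase that untangles chromosomes, had 338, 198, 595 and 187 CPM. The replication score minus the mitosis score came to -0.15, 0.10, 0.00 and 0.04 for tumours 1 to 4. Tumour 1 thus had a little more mitosis than replication RNA relative to the others, a difference of 0.25 from the lowest to the highest tumour, or 0.10 without tumour 1.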

How the data were processed

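For 4 tumours the authors deposited whole-number read counts per gene in 1 table, made from poly-A RNA sequenced as paired reads of 100 bases, per the labels' protocols. FastQC and the builds GRCm38 and mm10 are named per the submitters' processing notes. Which aligner, counter, annotation and strand setting were used is not given in the sources used here. Overlapping genes cannot be told apart. Of 28440 Entrez rows, 24480 (97.86% of counts) matched a symbol of the RefSeq table of GRCm38.p6; the rest stayed in the library sizes. The number of per-sample columns not used was 0.

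With filterByExpr for 1 group, a gene was kept if it reached the minimum count (10 at the median library size) in each of the 4 tumours (minimum total 15). A gene low in any tumour was removed, however high elsewhere, as were Acta1, Ckm and Myh4. Such genes are outside all counts and shares over genes tested. The genes kept were scaled by TMM and fitted with edgeR 4.0.16 in R 4.3.3. With 1 group there is no contrast, so each gene's deviance at the trended dispersion was compared with chi-square on 3 degrees of freedom (adjusted p threshold 0.05). The test was checked on simulated counts. Library totals were 35220504 to 42809015, and the upper limit for a gene at 0 counts (3 counts) is 0.0706 to 0.0865 CPM. Log2 CPM used a prior count of 2. Exon lengths came from GENCODE M21 (basic set, UTRs included). Member genes and lists were chosen with earlier results of these data known, so the counts over them are descriptions. Named were all 39 members and, of each other replication list, the gene with the highest mean and the one with the largest SD, plus Mki67, Top2a and markers. Partner genes and single marker genes beyond these were named after seeing their values. Alternatives were RLE scaling, library size alone, scaling to epithelial markers, other filters and prior counts, medians, Holm adjustment, DESeq2 1.42.0 and leaving out each tumour. Another marker list is not reported here.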

Additional observations from a re-analysis of the deposited data

Results flagged for a closer look

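Of the 39 replication genes, 8 had tumour 3 far above the other tumours on the log2 scale, with a gap to the next tumour that took most of the gene's whole range (Dixon's 95% criterion for 4 samples). They were Orc6 (22.0 CPM in tumour 3), Mcm4 (134 CPM), Mcm7 (135 CPM), Cdc45 (41.7 CPM), Pola1 (68.3 CPM), Pola2 (42.3 CPM), Pole (95.6 CPM) and Rrm2 (103 CPM). Chance flags about 1 in 20 such groups, and 5.64% of all genes tested met the criterion in some tumour, or 1.23% with tumour 3 as the highest. Among other named genes, the same criterion picked out Topbp1 (170 CPM in tumour 3) and the skeletal muscle gene Mylpf (44.0 CPM in tumour 3).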

How the results depend on the processing

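The spread test passed 0 replication genes, and 0 of the other replication genes tested, with RLE or library size scaling, without a count filter, above a 5 CPM minimum, by Holm adjustment or DESeq2, and with each tumour left out. Its calls with epithelial scaling were not read out, and prior counts and medians do not enter it. Over all genes tested 574 passed, against 895 with no count filter, 198 with Holm adjustment, 91 by DESeq2 dispersion outliers and 367 to 417 when 1 tumour was left out (367 without tumour 4). The range of the replication score was 1.05, and 0.39 to 1.05 when 1 tumour was left out, the lowest value being without tumour 3. It was 1.28 when scaled to epithelial markers and 1.02 to 1.13 under the other settings. The number of genes highest in tumour 3 was 37, and 28 with epithelial scaling, 36 with RLE or no count filter, 35 of the 38 with a mean of at least 5 CPM, and 36 to 39 without tumour 1, 2 or 4. The difference between replication and mitosis scores had a range of 0.254, or 0.104 to 0.254 when 1 tumour was left out, the lowest without tumour 1. The lowest count of these genes was 80, and an effect of depth on the test was not examined. No member crossed the threshold in 350 combinations of a gene and a setting. These came from refits of all genes together or, for Holm, from the main fit with another adjustment. No paired analysis was possible because the 4 tumours form 1 group and share no replicate numbers with another.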
